A study of Caenorhabditis elegans with 4 samples.

Results

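LIN-15B peaks were described at the genes for small nucleolar RNAs (snoRNAs) of Caenorhabditis elegans. The members were chosen by the peaks themselves. A snoRNA gene of the Ensembl WBcel235 annotation was a member when the summit of a peak called on the pooled replicates lay from 500 bp upstream to 100 bp downstream of its start, and 90 of 346 annotated snoRNA genes met this rule. The study was a chromatin immunoprecipitation of GFP-tagged LIN-15B, a synMuv B repressor with a THAP domain, from whole L4 larvae of mixed sex, in 1 group with no second condition. All 4 samples came from strain OP184, which carries unc-119(tm4063) III and the transgene array wgIs184. They form 3 biological replicates, the third of which holds 2 technical libraries joined in 1 peak list. The labels call the tag eGFP, list the antibody by the name lin-15B, and for the third replicate only add a C-terminal GFP-FLAG fusion. They also give that replicate another source of worms and another entry on fragmentation. Its worms were shared by its technical libraries, so n is 3 throughout. The animals' age beyond the stage is listed as unknown, and whole larvae mix all tissues, so a peak cannot be assigned to a cell type.

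snoRNAs guide the chemical modification of ribosomal and spliceosomal RNA. Box C/D snoRNAs work with the methyltransferase fibrillarin to place 2′-O-methyl groups, and box H/ACA snoRNAs work with the pseudouridine synthase dyskerin. In animals many are cut from the introns of host genes and so depend on the host promoter, while others are transcribed from promoters of their own. tRNA genes, which serve here for comparison, are read by RNA polymerase III from an A box and a B box inside the gene. In Arabidopsis and rice some box C/D snoRNAs are cut from transcripts that begin with a tRNA.

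snoRNA sequences are shown first, since the class of a member is read from its own sequence. Printed are 8 of the members that match a box motif and have an optimal peak, one kept in the authors' list from comparing replicates. K07C5.11, the highest-scoring match outside that list, is printed too. F59C6.15, T19B4.8 and D1007.20 also match and have an optimal peak, but are not printed. The printed set was chosen for a match, and 4 of the 15 members with an optimal peak match none, among them H06I04.9 and F39B2.14. All sequences come from the RefSeq copy of WBcel235, whose coordinates equal those of the ce11 peak lists, and run 5′ to 3′ on the strand of the snoRNA. Capitals mark a C box (TGATGA in the first 25 bases), a D box (CTGA in the last 25 bases) or an ACA followed by 3 bases at the end. F54E7.10 lies at chrIII:5679378-5679509 (+) in intron 1 of rps-12, Y53F4B.47 at chrII:15025814-15025893 (-) outside protein-coding genes, and Y24D9A.9 at chrIV:4390088-4390308 (-) in intron 2 of rpl-7A. ZK994.7 lies at chrV:8500579-8500645 (+) in intron 17 of pxn-1, and C18A3.12 at chrII:5701662-5701726 (+) outside protein-coding genes. C07A9.14 lies at chrIII:9717380-9717458 (+) in ncx-7, and T03F7.8 at chrV:11314258-11314332 (+) in cutl-18, both on the opposite strand of the host. Y75B12B.12 lies at chrV:15190976-15191093 (-) outside protein-coding genes. K07C5.11 lies at chrV:10352710-10352836 (-) in intron 1 of nol-56, which encodes a core protein of the box C/D particle.
F54E7.10: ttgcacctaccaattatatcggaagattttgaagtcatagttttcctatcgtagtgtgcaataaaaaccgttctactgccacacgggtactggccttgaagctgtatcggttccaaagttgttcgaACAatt
Y53F4B.47: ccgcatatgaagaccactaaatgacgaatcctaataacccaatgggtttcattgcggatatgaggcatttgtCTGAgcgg
Y24D9A.9: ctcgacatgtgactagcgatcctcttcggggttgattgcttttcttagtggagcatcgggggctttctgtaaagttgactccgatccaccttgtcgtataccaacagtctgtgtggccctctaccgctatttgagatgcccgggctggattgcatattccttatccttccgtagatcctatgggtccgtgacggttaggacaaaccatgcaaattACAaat
ZK994.7: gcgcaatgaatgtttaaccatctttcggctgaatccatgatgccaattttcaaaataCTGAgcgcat
C07A9.14: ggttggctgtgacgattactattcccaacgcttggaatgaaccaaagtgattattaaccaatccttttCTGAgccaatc
Y75B12B.12: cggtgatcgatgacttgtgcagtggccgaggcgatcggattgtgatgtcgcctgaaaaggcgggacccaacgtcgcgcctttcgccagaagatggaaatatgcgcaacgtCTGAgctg
T03F7.8: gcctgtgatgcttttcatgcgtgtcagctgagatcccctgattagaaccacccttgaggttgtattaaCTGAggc
C18A3.12: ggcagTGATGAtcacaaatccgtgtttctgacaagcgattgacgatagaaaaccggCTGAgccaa
K07C5.11: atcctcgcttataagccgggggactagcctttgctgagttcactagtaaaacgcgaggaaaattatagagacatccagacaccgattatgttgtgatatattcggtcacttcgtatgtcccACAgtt

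By these letters 37 members held a C box, a D box or both, 19 had the ACA end, and 37 of 90 (41.1%) matched none. Both kinds stood together in 3 members, C46C2.8, C53B7.8 and ZK643.9, each with a D box and the ACA end. The strict motifs thus class only part of the members. Of the members without the ACA end, 9 held a C and a D box, 1 a C box alone and 24 a D box alone. Among the 256 snoRNA genes that were not members, 54 (21.1%) held a C box, a D box or both, and 172 (67.2%) matched none. Without the ACA end, 6 of these genes held a C and a D box, 5 a C box alone and 34 a D box alone. The shares with a D box alone were 26.7% of members and 13.3% of the others. The ACA end was found in 21.1% of members and 15.2% of the others. The median length was 118 bases in members and 133 bases in the others.

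A second set of sequences is shown because it recurs before some members and resembles the promoter inside a tRNA gene. In the 80 bases before the start of these 8 snoRNA genes, capitals mark an A box consensus and then a B box, searched as GTTCNANNC. The 8 are a part of the 14 members with both boxes. None of the 4 such members inside a gene on the same strand is printed. These motifs were chosen after the sequences had been seen, and only the strand of the snoRNA was searched. T03F7.8 (printed stretch at chrV:11314178-11314257), Y75B12B.12 (chrV:15191094-15191173, minus strand) and W03C9.9 (chrII:11960818-11960897) had the highest scores of the set. F32E10.10, F12F6.11, T10B9.11 and C41C4.11 are stand-alone, whereas C04G6.12 lies in an intron of mpk-2 on the opposite strand.
T03F7.8: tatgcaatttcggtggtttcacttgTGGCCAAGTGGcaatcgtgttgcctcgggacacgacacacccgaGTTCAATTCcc
Y75B12B.12: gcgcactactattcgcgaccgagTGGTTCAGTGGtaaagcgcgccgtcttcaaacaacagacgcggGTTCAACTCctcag
W03C9.9: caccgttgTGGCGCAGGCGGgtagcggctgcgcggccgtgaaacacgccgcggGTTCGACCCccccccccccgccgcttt
F32E10.10: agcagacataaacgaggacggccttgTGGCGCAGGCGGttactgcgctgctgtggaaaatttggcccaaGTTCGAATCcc
F12F6.11: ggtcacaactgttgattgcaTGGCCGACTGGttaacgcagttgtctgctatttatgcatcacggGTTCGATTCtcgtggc
C04G6.12: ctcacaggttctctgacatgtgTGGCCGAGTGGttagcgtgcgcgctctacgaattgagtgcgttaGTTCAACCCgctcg
T10B9.11: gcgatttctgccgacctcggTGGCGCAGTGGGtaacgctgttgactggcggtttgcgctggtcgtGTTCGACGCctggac
C41C4.11: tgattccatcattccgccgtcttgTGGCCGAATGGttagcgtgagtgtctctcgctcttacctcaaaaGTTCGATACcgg

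The B box motif stood within 50 bases before the start of 17 of 90 members (18.9%) and 14 of the other 256 snoRNA genes (5.47%). Read the other way, 17 of the 31 snoRNA genes with the motif there were members (54.8%), against 73 of 315 without it (23.2%). An A box consensus preceded the B box in the 150 bases before 14 members (15.6%) and 10 other snoRNA genes (3.91%). The same search found the pair before 0.0451% of 19973 protein-coding starts, and the B box motif inside 587 of 612 nuclear tRNA genes (95.9%). In the 17 members the B box began 10 to 44 bases before the annotated start, with a median of 14. The distance from A box to B box was 36 to 55 bases, with a median of 44. In 16 of the 17 the summit lay within 100 bp of the snoRNA start. Stand-alone members held the B box near the start in 10 of 43 (23.3%), members on the opposite strand of a host in 3 of 10, and members on the same strand in 4 of 37 (10.8%). No member summit was within 300 bp of an annotated nuclear tRNA gene, and the smallest distance was 352 bp. The elements are matches to letters, and their use was not tested. Without replicate 3, 5 of the 17 stayed among snoRNA genes that had a peak in both other replicates, against 8 without replicate 1 and 8 without replicate 2.

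The third set shows 101 bp around 3 of the 5 highest member summits, chosen because they hold the motif, with GCGCG and its reverse complement in capitals. The first lies upstream of rps-12 at chrIII:5679085-5679185, the second upstream of Y53F4B.47 at chrII:15025918-15026018 (minus strand), and the third upstream of ubl-1 at chrIII:3068049-3068149.
F54E7.10: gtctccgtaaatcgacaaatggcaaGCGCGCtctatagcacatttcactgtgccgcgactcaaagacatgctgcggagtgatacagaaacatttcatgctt
Y53F4B.47: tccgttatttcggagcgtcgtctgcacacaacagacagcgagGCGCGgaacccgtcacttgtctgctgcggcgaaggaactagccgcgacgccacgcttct
H06I04.9: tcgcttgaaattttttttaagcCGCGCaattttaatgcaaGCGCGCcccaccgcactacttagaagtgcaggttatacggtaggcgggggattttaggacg

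Within 100 bp of the summit, on either strand, GCGCG stood at 29 of the 89 peaks of members (32.6%), 12.2% of all 8636 pooled peaks and 48.3% of the 383 peaks of the authors' optimal list. GTTCGA, which many B boxes contain, stood at 17 member peaks (19.1%) against 8.34% of pooled peaks. None of the 15 members with an optimal peak held GTTCGA in that window, where the B boxes of T03F7.8 and Y75B12B.12 read GTTCAA instead. The remaining motif, TTTGAA, was rarer at members than in the pooled list, at 24.7% against 46.9%. The median G+C content of these 201 bp windows was 44.8% at member peaks, 35.8% over pooled peaks and 41.3% over optimal peaks. Motif shares move with base composition, and their part in the member peaks was not tested.

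A pooled peak stood at 26% of snoRNA genes. The same window held a pooled summit at 8.25% of all 46926 annotated genes, at 25.1% of 634 tRNA genes, 14.7% of 129 snRNA genes, 13% of 261 miRNA genes and 11% of 19985 protein-coding genes. The 634 include mitochondrial tRNA genes, and of the 612 nuclear ones 150 had a pooled peak. The snoRNA and tRNA shares were therefore near each other and above the other classes named. The rule used these peaks, so the shares are a description without a test. The 90 members drew on 89 peaks, since C51F7.3 and C51F7.4, neighbours in the frm-7 gene, shared a summit. No member had more than 1 pooled peak in its window. Of the 90, 35, 38 and 29 had a peak over the summit among the 8636 highest of both remaining replicates without replicate 1, 2 and 3 in turn, a count that asks more than the pooled rule does. The X chromosome held 4 members among 33 snoRNA genes (12.1%), and the autosomes held between 24.1% and 30.9% each. The shares of all genes by chromosome are not given here, so the X value cannot be read as particular to snoRNA genes.

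In each replicate list taken alone the snoRNA share was again above that of all genes. Among the 8636 highest peaks of each list, 63, 54 and 88 snoRNA genes had a summit in the window in replicates 1, 2 and 3, which is 19.7% ± 5.08 (SD, n = 3) of snoRNA genes. All annotated genes reached 7.33% ± 0.192 (SD, n = 3) in the same lists. The 3 snoRNA values, from 15.6% to 25.4%, all lay above the 3 values for all genes. At the 383 highest peaks of each list, 14, 9 and 19 snoRNA genes were found, or 4.05% ± 1.45 (SD, n = 3) against 0.888% ± 0.019. Replicate 3 gave the most snoRNA genes at each depth of the list. Of the 135 snoRNA genes with a summit among the 8636 highest peaks of any replicate, 17 had one in all 3, and all 17 were members. The replicates are part of the pool, so they are no independent sample of it.

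**Figure D1:**
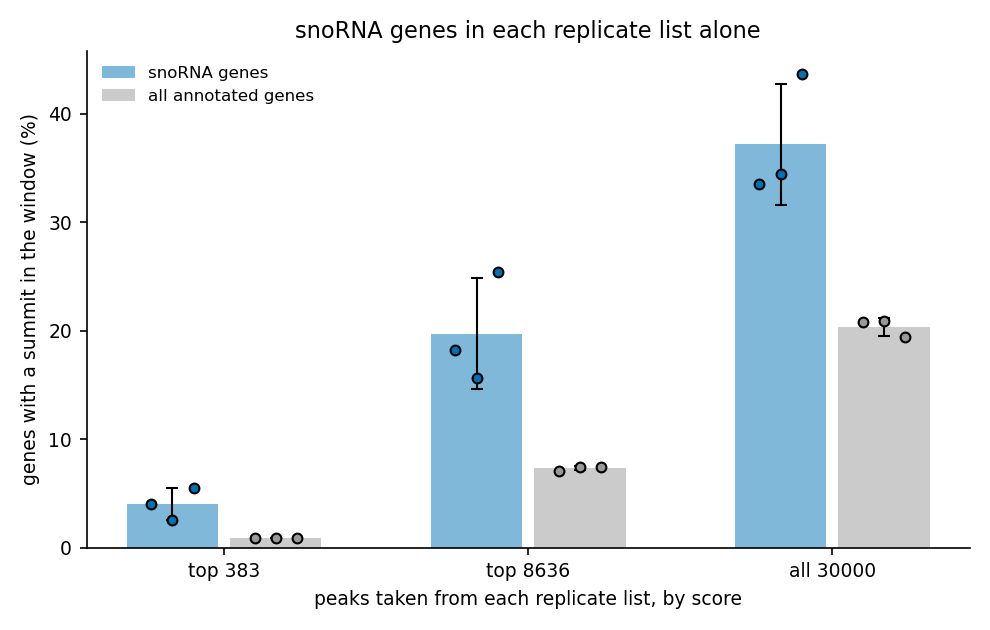
Share of genes with a summit from 500 bp upstream to 100 bp downstream of the start (y axis, %), for 346 snoRNA genes (blue) and 46926 annotated genes (grey), in each replicate's own list cut at 3 depths (x axis). Bars are means, error bars are SD and points are the 3 replicates; each blue point lies above the grey points of the same depth.

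Pooled summits were densest beside the snoRNA start in each placement, least clearly on the same strand as a host. The summit lay within 100 bp of the start in 58 of 90 members (64.4%) and inside the snoRNA in 26 (28.9%), and the median position was 57.5 bp upstream. The window of the rule limits these values, and the same share of other genes with a pooled peak is not given here. In 100 bp bins that were not limited to the window, stand-alone snoRNA genes had 13.1 pooled summits per 100 genes in the bin just upstream of the start and 8.46 in the bin just downstream. snoRNA genes on the opposite strand of a host had 12.1 and 15.2, from 33 genes only. snoRNA genes on the same strand as their host had 6.01 and 5.46. tRNA genes had 7.68 and 9.64. Protein-coding genes reached their highest value, 2.62, in the bin from 200 to 101 bp upstream. In the other bins the values of stand-alone snoRNA genes ranged from 0 to 4.62, and those of same-strand snoRNA genes from 1.64 to 4.37. Of the 58 members with a summit within 100 bp, 25, 23 and 17 kept a peak in both remaining replicates without replicate 1, 2 and 3 in turn.

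**Figure D2:**
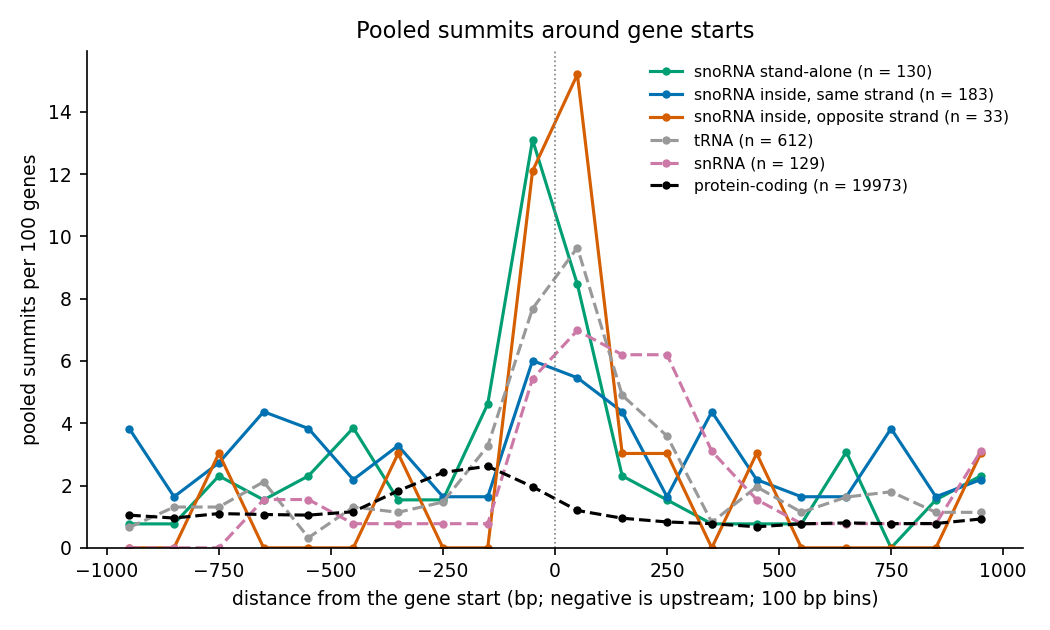
Pooled summits per 100 genes (y axis) by distance from the gene start in 100 bp bins (x axis, bp, negative upstream), for the 3 placements of snoRNA genes, tRNA, snRNA and protein-coding genes. Stand-alone and opposite-strand snoRNA genes rise to 13.1 and 15.2 beside the start, while protein-coding genes peak at 2.62 farther upstream.

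In the window of the rule, the placement of a snoRNA gene went with how often it had a peak. Of the 130 stand-alone snoRNA genes 43 were members (33.1%), of the 33 on the opposite strand of a protein-coding gene 10 (30.3%), and of the 183 inside a protein-coding gene on the same strand 37 (20.2%). The last class made up 52.9% of all snoRNA genes and 41.1% of the members. With 1000 bp upstream and 500 bp downstream it made up 77 of 145 members, near its share of all snoRNA genes. The contrast between placements thus depended on the window. Of the 37 in the window of the rule, 34 lay in an intron and 3 overlapped an exon. The 3 were F39B2.14 in tmem-107, C51F7.4 in frm-7 and F41E6.18 in smk-1. The scores of the 3 placements overlapped widely, with medians of 18.2, 20.1 and 17.8 in the order given above. A score is the authors' value for a peak and is compared here only within a list. The median score of all pooled peaks was 13.5. Of the 37 members on the same strand, 13, 16 and 9 had a peak in both remaining replicates without replicate 1, 2 and 3 in turn.

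**Figure D3:**
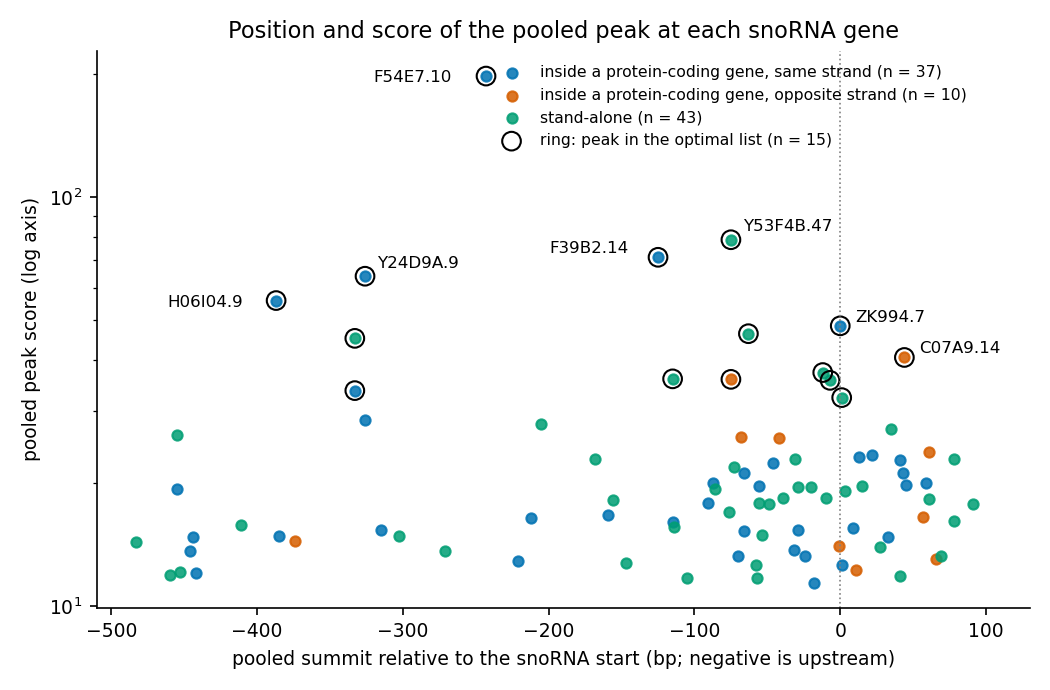
Score of the pooled peak (y axis, log scale) against the position of its summit relative to the snoRNA start (x axis, bp), one point per member, coloured by placement, with a ring for the 15 optimal peaks. Points crowd within 100 bp of the start, and the highest, F54E7.10 at 197.6, lies 243 bp upstream.

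The members inside a gene on the same strand were set against the outermost annotated start of the host. In 10 of them the summit lay upstream of that start, by 44 to 271 bp, and the snoRNA began 61 to 337 bp into the host. These hosts were rps-12, tmem-107, rpl-7A, ubl-1, rpl-24.1, nol-56, rpl-4, rps-29, rpl-26 and tag-115, with a median length of 981.5 bp, and in 5 of the 10 the peak was optimal. None of the 10 summits was within 100 bp of the snoRNA start, which the distances above require. The rule allows at most 500 bp from an upstream summit to the snoRNA start. A summit upstream of the host thus counted only where the snoRNA began close behind the host start. In the other 27 the summit lay 360 to 15984 bp downstream of the host start. Their hosts had a median length of 6592 bp, 21 of 27 summits were within 100 bp of the snoRNA start, and 1 of the 27 peaks was optimal. In general 74.2% of optimal peaks lay in a protein-coding promoter window, against 25.6% of all pooled peaks. The contrast of 5 of 10 with 1 of 27 is thus not a result about the members. In 3 of the 27 the summit was in the promoter window of an inner transcript start of the host, namely Y37E3.20 in pcyt-2.1, smy-2 in C33A12.3 and F55A11.10 in F55A11.6. All 10 members on the opposite strand had the summit downstream of the host start too, and 9 of them had it within 100 bp of the snoRNA start. The rule keeps every member summit within 500 bp of the snoRNA start, so this closeness is partly set by the choice of members.

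**Figure D4:**
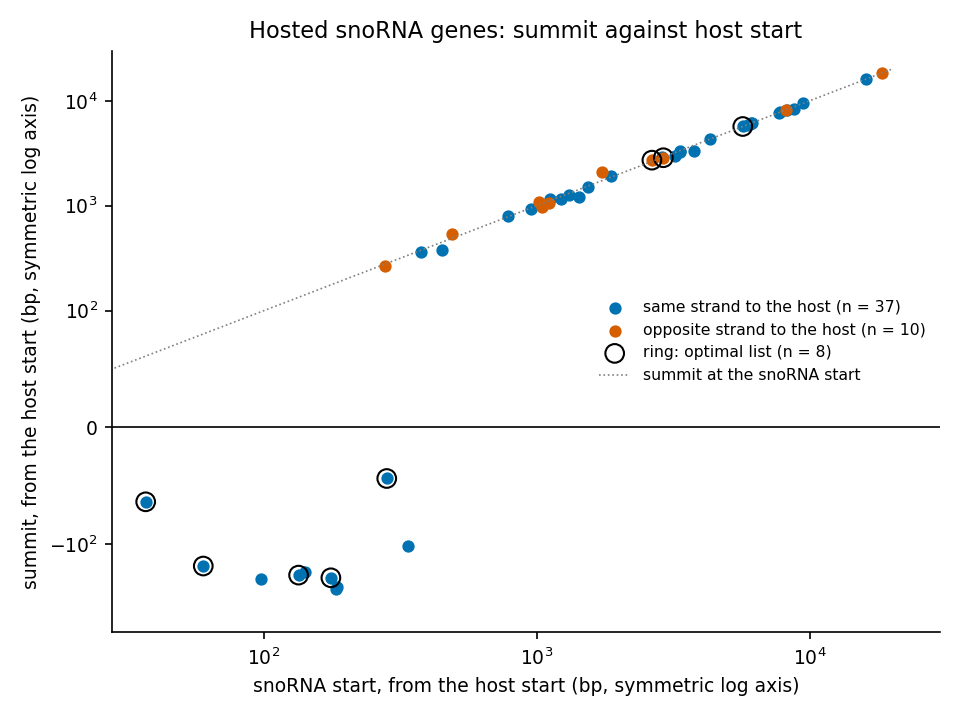
Position of the summit (y axis) against the start of the snoRNA (x axis), both in bp from the start of the host gene on symmetric log axes, for 37 members on the same strand (blue) and 10 on the opposite strand (orange), with rings for optimal peaks. In the 10 points below 0 the summit is upstream of the host start. The other points lie near the dotted line on which summit and snoRNA start coincide, which the rule on distance largely requires.

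Ribosomal protein genes were the hosts of 21 snoRNA genes, of which 9 were members (42.9%), 4 of them with an optimal peak. Other genes were the same-strand hosts of 162, of which 28 were members (17.3%), 2 of them with an optimal peak. In the 9 the median summit position was 326 bp upstream of the snoRNA start, against 51 bp upstream for the 28 members with other hosts on the same strand. Among the 14 ribosomal protein genes that host a snoRNA, 13 had a pooled peak in their own promoter window and 10 an optimal one. Among the 68 that host none, 48 (70.6%) had a pooled peak and 26 (38.2%) an optimal one. The host peak counted for a snoRNA only when the snoRNA began close behind it. R151.13, C16A3.11 and B0412.6 were members through other, lower peaks, at ranks 4720, 4724 and 2584. The highest promoter peaks of their hosts rpl-6, rps-13 and rps-29, at ranks 512, 313 and 332, lay 1337, 629 and 547 bp from these snoRNA starts. F54E7.11, in intron 2 of rps-12, began 610 bp from the host summit and was outside the rule. Both snoRNA genes of rpl-15, whose promoter peak scored 184.2 at rank 12, were outside too, at 563 and 894 bp from it. None of the 5 snoRNA genes hosted by translation factor genes was a member, where 20.2% of all same-strand hosted snoRNA genes were.

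Some member peaks lay in a protein-coding promoter window, which was set as for the members around every annotated transcript start. This held for 25 of 90 members (27.8%), close to the 25.6% of all pooled peaks. The share of members in such windows is thus not a result about the members. Among these 25, 9 had an optimal peak, against 6 of the other 65. Optimal peaks lay in such windows more often in general, at 284 of 383 (74.2%), and at 9 of the 15 members with an optimal peak (60%), so this contrast is not a result about the members either. Without replicate 1, 2 and 3 in turn, 13, 14 and 12 of the 25 had a peak in both remaining replicates. The summit was nearer to the snoRNA start than to any protein-coding start in 78 of 90 members (86.7%) and in 9 of the 15 with an optimal peak (60%), a share that the rule on distance largely sets. Annotated starts of C. elegans mRNAs are often trans-splice sites, so true promoters can lie farther upstream than these distances.

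The authors' optimal list, made by comparing replicates, held 383 peaks. They were the 383 highest of the pooled list. It contained the peaks of 15 members (16.7%), beside 12.3% of the genes of any biotype with a pooled peak. Of the 15, 6 lay inside a gene on the same strand, 2 on the opposite strand and 7 stood alone. The lowest score among them was 32.3, at C18A3.12, and the next member below, K07C5.11, stood at rank 389 of the pooled list. All 3 replicates held a peak over the summit among their 8636 highest in 24 of 90 members (26.7%), beside 6.38% of all pooled peaks. This was the case for 14 of the 15 members with an optimal peak, beside 83.3% of optimal peaks, and for 10 of the other 75 (13.3%), beside 2.81% of the pooled peaks outside the optimal list. Member peaks also scored higher, with a median of 18.1, and 16.5 outside the optimal list, against 13.5 for all pooled peaks. Recovery was not compared at equal score. Replicates 1, 2 and 3 covered 54, 48 and 64 members at that depth, and 71, 67 and 76 with all 30000 peaks. At the size of the optimal list, 4 members were in all 3 replicates.

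F54E7.10 had the highest score of any member, 197.6, at rank 9 of the pooled list. Its peak ranked 10, 13 and 10 in replicates 1, 2 and 3, with summits 250, 252 and 235 bp upstream of the snoRNA start. The replicates thus placed it alike, with an SD of 9.29 bp. This was the lowest SD among the 44 members covered in all 3 replicates, where the median was 45.1 bp and the highest 167.4 bp. The pooled summit lay 163 bp upstream of rps-12, which encodes a protein of the small ribosomal subunit, and 130 bp upstream of ska-3 on the other side.

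Y53F4B.47 was the highest stand-alone member, with a score of 78.6 at rank 57 and a summit 75 bp upstream of its start. Its ranks were 202, 52 and 46 in the 3 replicates, lowest in replicate 1. The same summit lay 146 bp upstream of cmtr-1, so the peak stood between the pair of starts.

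Y24D9A.9, in rpl-7A of the large ribosomal subunit, had a score of 64.0 at rank 92 and ranks of 105, 66 and 111. Its summit lay 44 bp upstream of rpl-7A and 210 bp upstream of set-21. H06I04.9, in intron 1 of ubl-1, which encodes a ubiquitin-like protein fused to a ribosomal protein, had a score of 55.8 at rank 120. Its ranks spread more, from 332 and 1272 in replicates 1 and 2 to 64 in replicate 3.

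ZK994.7 differed from these in place. Its summit fell on the first base of the snoRNA, 5690 bp downstream of the start of pxn-1, a peroxidasin gene, with a score of 48.4. It ranked 184, 445 and 128, with replicate summits 25 bp downstream, 24 bp upstream and 30 bp upstream of the start. C07A9.14, in intron 7 of ncx-7 on the opposite strand, scored 40.5 with a summit 44 bp downstream of its start. Its rank was 2430 in replicate 1 and 125 and 266 in the other replicates, so replicate 1 was the low one. T03F7.8, in intron 7 of cutl-18 on the opposite strand, scored 35.8 and ranked 455, 718 and 344.

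Y75B12B.12 scored 37.2 with a summit 12 bp upstream of its start and 191 bp upstream of Y75B12B.11. It ranked 277, 610 and 142, with replicate summits 75 bp downstream, 137 bp downstream and 23 bp upstream of the start. F09G2.14 scored 35.9 with ranks of 650, 2747 and 229, its summit being 115 bp upstream of its own start and 221 bp upstream of F09G2.2. C18A3.12, with a summit 1 bp from its start and 2036 bp from the nearest protein-coding start, had no peak over the summit in replicate 1. It ranked 1838 and 340 in replicates 2 and 3. F09G2.14 and C18A3.12 thus stood highest in replicate 3 and lower in replicate 2.

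The other optimal members were F39B2.14, F59C6.15, F37F2.4, T19B4.8 and D1007.20. F39B2.14 scored 71.2 and ranked 79 in every replicate, with a summit 64 bp upstream of tmem-107 and 393 bp upstream of rps-26. F59C6.15, stand-alone, scored 46.3 with a summit 63 bp upstream of its start and ranks of 96, 913 and 136. F37F2.4 scored 45.1 with a summit 333 bp upstream of its start and 230 bp upstream of F37F2.2, and ranked 175, 1446 and 163. T19B4.8 scored 35.6 with a summit 7 bp upstream of its start, 4883 bp from any protein-coding start, and carried the A and B boxes. Its ranks were 665, 228 and 945. D1007.20, in rpl-24.1, scored 33.6 and ranked 269 and 327 in replicates 1 and 2 but 3076 in replicate 3. Replicate 2 ranked the first pair of stand-alone genes lower than the other replicates did, and replicate 3 was the low one for D1007.20.

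**Figure D5:**
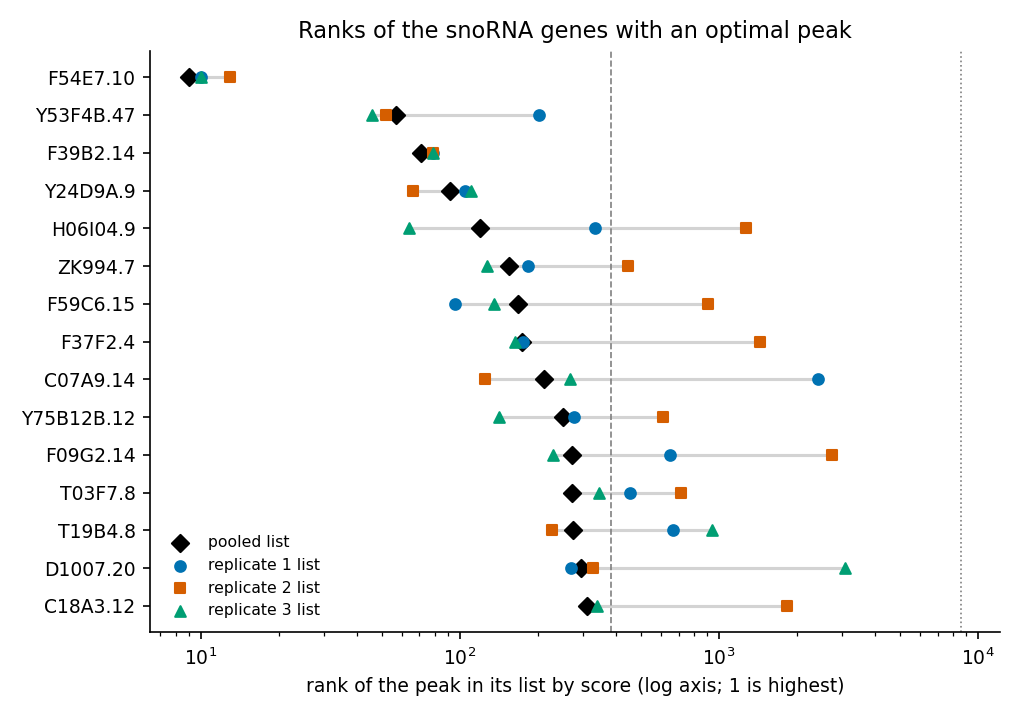
Rank of the peak by score (x axis, log scale) in the pooled list (black) and in replicates 1, 2 and 3 for the 15 members with an optimal peak (y axis). Dashed and dotted lines mark ranks 383 and 8636; F54E7.10 and F39B2.14 hold nearly the same rank in every list, while C18A3.12 has no point for replicate 1.

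Of the members outside the optimal list, K07C5.11 stood highest. Its summit lay 326 bp upstream of its start and 184 bp upstream of nol-56, and its ranks were 4831, 25670 and 156, so the peak rested mainly on replicate 3. M7.15 scored 27.9 and ranked 605, 222 and 282, and W03C9.9 scored 27.0 with ranks of 308, 385 and 1023. C34E11.20 scored 26.2 with a summit 455 bp upstream of its start. ZK484.9, in haf-9 on the opposite strand, scored 25.9 and had no peak over the summit in replicate 2. The lowest 3 members were F12F6.11 and F17C11.24, both at 11.7, and D2096.14 in nap-1 at rank 8529, and each was covered in replicate 3 only.

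The edges of the window decided few members. K02C4.8 and Y74C9A.6, each 78 bp downstream, F25H2.15 at 91 bp downstream and K07E1.2 at 483 bp upstream were just inside. T19C4.11, C17D12.8, Y119C1B.13 and T08B2.13, from 104 to 111 bp downstream, and T19E7.29 at 522 bp upstream were just outside. C06A1.9 was also outside, with a summit 521 bp upstream of its start whose score of 385.4 ranked 2 in the pooled list.

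The protein genes of the snoRNA particles were covered more often than protein-coding genes at large. Of 13 genes listed for snoRNA particles and their assembly, 9 had a pooled peak and 4 an optimal one. Over 19985 protein-coding genes, with every transcript start searched, the shares were 12.4% and 1.98%. The highest was fib-1, the fibrillarin gene, at 63.0 and rank 95, with a summit 319 bp upstream that also lay in the window of mut-15. Its ranks were 97, 95 and 151 in the replicates. The other optimal peaks were at ruvb-2, an AAA ATPase of the assembly machinery, at 36.7, nol-58, a box C/D core protein, at 34.9, and Y48A6B.3, the NHP2 protein of box H/ACA particles, at 29.9. The ranks of ruvb-2 were 203, 328 and 361, those of Y48A6B.3 were 5376, 1117 and 1179, and those of nol-58 were 137, 370 and 15936, so nol-58 was low in replicate 3. Pooled peaks outside the optimal list stood at nol-56 at rank 389, ruvb-1 with 19.8, dkc-1, the dyskerin gene, with 18.1, dao-5 with 13.8 and snu-13 with 12.4. ruvb-1 had a peak over the summit in replicate 2 only, snu-13 had none in replicate 1, and dao-5 ranked 17090, 1939 and 15682. For dkc-1 the ranks were 15357, 533 and 6263. Besides fib-1, the summits at nol-58, Y48A6B.3, dkc-1, ruvb-1 and snu-13 also lay in the window of another gene, which was zip-4, fipr-17, ran-1, tofu-1 and rsp-7 in that order. No pooled peak was found at garr-1, nola-3, tgs-1 or ncl-1, a repressor of nucleolar size. These summits lay 87 to 319 bp upstream of the protein-coding start. The peak of K07C5.11 and that of nol-56 were the same peak.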

How the data were processed

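Peak lists on ce11 were used as deposited, 1 pooled, 1 optimal and 1 for each of 3 biological replicates. The score column of each list holds the authors' value per peak, which was compared only within a list. Each list was called against a control alignment, per the labels of the files. Which aligner and caller made them, and which cutoff defined the optimal list, is not given in the sources used here. Without read counts, depth is unknown and no counting interval was given. Number of per-sample columns left unused: 0. Summits were the deposited start plus offset plus 1.

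Genes came from Ensembl release 115 (WBcel235), and starts were the 5′ ends of genes, or of every transcript for protein-coding promoter windows. A snoRNA gene was hosted when it lay within a protein-coding gene. A replicate held a member when a peak of its list covered the pooled summit. Python 3.11.15, pandas 2.3.3 and numpy 2.4.6 were used, and the window search was tested on simulated data. No test was run, since the members were chosen by the peaks and the replicates are part of the pool.

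Members and lists were chosen with earlier results of these data known. Named are all members with an optimal peak, the 20 highest and 3 lowest scores, genes within 25 bp of a window edge, their hosts and the protein-coding genes sharing the summit, plus members that illustrate a count. B and A boxes, the split of hosts by summit side and the count of ribosomal protein genes were chosen after the data were seen. Lists on ce10 were not used.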

Additional observations from a re-analysis of the deposited data

How the results depend on the processing

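The number of members followed the window. With 200 bp upstream and 50 bp downstream it was 58, of which 23 lay inside a gene on the same strand and 13 in a protein-coding promoter window. With 1000 and 500 bp it was 145, with 77 inside a gene, 29 optimal, 48 in a promoter window and 40 in all 3 replicates. At that width the same-strand share of members was near that of all snoRNA genes, 52.9%. Counting any overlap of the peak with the window moved the promoter count to 38. Promoter windows of the narrow and the wide size gave 12 and 41. The upper 50% of the optimal peaks held 8 members. A depth of 383 peaks in each replicate left 4 members in all 3, and all 30000 peaks gave 44. Keeping only members with a peak in both remaining replicates when each replicate was left out gave 29 to 38 members, 9 to 16 inside a gene, 12 to 14 in a promoter window and 14 to 15 optimal. The lowest of the first 3 counts came without replicate 3, and all are smaller by construction, since the pooled rule asks for no replicate. Members with a summit within 100 bp of the start fell from 58 to 25, 23 and 17 without replicate 1, 2 and 3 in turn. Those with the B box near the start fell from 17 to 8, 8 and 5. Other alternatives stayed within 1.5 times, 33 of 62 in all. Taking the peak nearest the start could change no count, since no member had more than 1 pooled peak in its window. The optimal count in the upper 50% of the pooled peaks was fixed too, as the optimal peaks were the highest. The 33 include these fixed counts, which say nothing about stability. The replicates' own summits lay within 100 bp of the start in 54% ± 6.31 (SD, n = 3) of the members each covered, a check chosen after seeing the data. No paired analysis was possible because the design has 1 group. Depth is unknown, so a missing peak does not show absence of binding, and signal in worms without the tagged protein was not analysed here.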
